A study of Oryza sativa Indica Group with 24 samples.

Results

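The 150 brightest clones of a rice leaf complementary DNA array were followed through a field drought. They were chosen by rank: on each of 21 arrays of days 45 to 71 after germination, the raw intensities of the control and the stress channel were multiplied for each spot, the products of a clone's duplicate spots were averaged, and the clones were ranked. The 150 clones with the highest mean rank were taken from the 7296 clones of the array, which is 2.06% of them. Brightness is therefore what chose these clones, and their ranks on the 21 arrays are given below as a description, without a test. The ratio of stress over control was not part of the choice, although it comes from the same intensities. The 2 arrays of day 75 that have intensities were not used in the choice.

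The leaves were those of Oryza sativa, Indica Group, cultivar Nagina 22 (N22). Each array held, in the first channel (Alexa 488), RNA of control plants kept at 100% field capacity, and in the second channel (Alexa 594) RNA of stressed plants of the same age, at 60% (mild), 40% (moderate) or 15% (severe) field capacity, which is the water a soil keeps after draining. There was 1 array for each level on days 45, 52, 55, 59, 63, 67, 71 and 75, after 7, 14, 17, 21, 25, 29, 33 and 37 days of stress, and 23 of the 24 arrays have intensities: 8 mild, 8 moderate and 7 severe. All plants had been transplanted to the field as seedlings and grown at 100% field capacity before the stress. The labels name days 45 and 52 vegetative, day 55 pre-anthesis, days 63 to 75 post-anthesis and seed setting, and no stage for day 59. They give leaves as the tissue of each sample, and the extraction text names panicles too. Per the labels, 5 leaves were sampled per plot, and no separate plots are named for the arrays of a level. The p-values therefore measure the spread between arrays and not between plots. The dyes were never swapped, so a dye effect and the stress cannot be told apart within an array. RNA of whole leaves was hybridised, so fewer cells of a type and less of an RNA per cell cannot be told apart either.

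In green leaf cells, the genes of photosynthesis, such as those for the small subunit of Rubisco, the enzyme that fixes carbon dioxide, and for the chlorophyll a/b-binding proteins, which gather light, supply a large part of the messenger RNA. In many plants the messenger RNA of such genes falls in leaves that run short of water and in leaves that age, and rice leaves export much of their nitrogen to the grain after flowering. No source used here ties a clone to a gene: looked up in a list of 39387 rice genes, 0 of the 7296 names matched. Which of the 150 clones belong to photosynthesis genes is therefore not known here, leaf marker genes could not be looked up, and clones are given by the names printed in the files. Several clones can stem from the same gene.

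The brightest clone was NL51_E08, with a mean rank of 7263.7 of a possible 7296. NL22_C01, NL35_A06, NL53_F04, NL41_C11, NL6_B11, NL7_C07, NL8_H09, NL41_E09 and NL39_C07 followed, the last with a mean rank of 7239.8. The choice ended at NL_11_95, NL6_A04 and NL_12_67, with mean ranks of 7069.7, 7068.9 and 7065.9, and the clones just outside, NL44_C09, NL15_D03 and NL_9_65, had 7061.6, 7061.6 and 7061.4, so that the boundary lies within a continuous series of values. The choice held 109 clones of the set named NL, 29 of the set named NL_ and 12 of the set named MK. They lay in print rows 1 to 11 of the 12 print rows, with 22 each in rows 1 and 9, 3 in row 10 and none in row 12.

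These clones were bright on nearly all arrays, though not always the brightest. Between 52 and 117 of them (median 103) were among the top 150 of an array by the product, 2 of them were among the top 150 on all 21 arrays, and 541 clones reached the top 150 on some array. On day 75, which had no part in the choice, 114 of the 150 were among the top 150 of the mild array and 106 among those of the moderate array. Of the 150, 140 were within the highest 300 ranks on both arrays of day 75. The lowest ranks there belonged to NL6_A04 (6922 mild, 6833 moderate), NL_6_17 (7126 and 6905) and MK_PG6_A07 (6910 and 6988).

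The ranks varied most over the 21 arrays for NL20_B02 (SD 596.3), NL21_E11 (SD 451.6) and NL16_G06 (SD 420.0), and each of these had its lowest rank on the moderate array of day 71. NL20_B02 had a control intensity of 2563 and a stress intensity of 2814 on that array, against 65366 and 4127 on the severe array of the same day. NL21_E11 had 4946 and 4369 on the moderate array, against 64256 and 3220 on the severe array. For these clones both channels of the moderate array were dim, which the ratio of the channels does not show. With these included, 17 of the chosen clones had their lowest rank on that array. All but NL19_H08 lay in print rows 1 to 5 and print columns 2 and 3, columns that hold 31 and 22 of the chosen clones. The low ranks there thus went with a region of the array, and the part of print position in them was not tested.

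In the control channel the clones kept their place throughout. Their median percentile among all clones lay between 98.4 and 98.9 on all 23 arrays, and 87 to 116 of them were among the 150 brightest clones of the control channel. In the stress channel the median percentile lay between 97.8 and 98.8 on 19 arrays. The 4 exceptions were mild day 52, at 93.6, and all arrays of day 71, at 85.3 (mild), 97.4 (moderate) and 79.2 (severe). On the severe array of day 71, 13 of the 150 clones were still among the 150 brightest of the stress channel, against 109 in its control channel. These percentiles are ranks within a channel and need no normalization between the dyes.

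**Figure D1:**
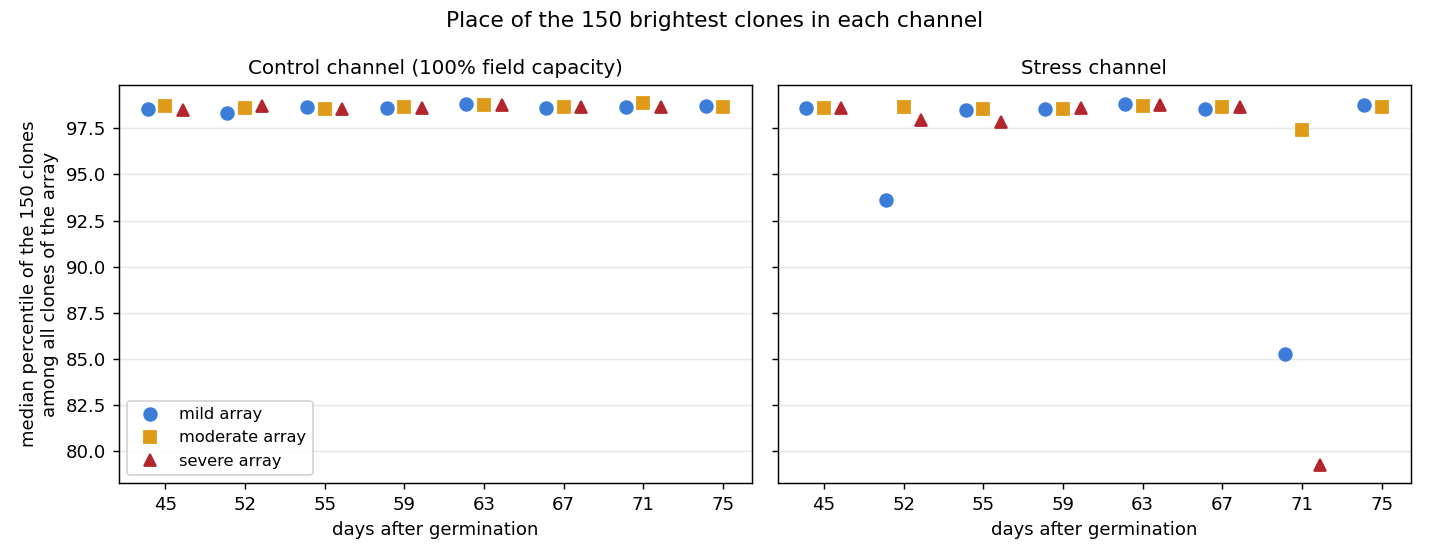
The median percentile of the 150 clones among all 7296 clones (vertical axis) is plotted for each array by day after germination, in the control channel (left) and the stress channel (right), with circles for mild, squares for moderate and triangles for severe arrays. All control values lie between 98.4 and 98.9, and in the stress channel the values of day 71 and of mild day 52 lie lowest, down to 79.2 on severe day 71.

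The share of the signal moved in the same way on day 71 and differently on day 59. On day 71 the 150 clones gave 21.2%, 20.4% and 28.3% of the summed intensity of all clones in the control channel of the mild, moderate and severe arrays; the stress channel had 5.11%, 10.9% and 3.54%. On day 59 they gave 12.7%, 13.5% and 16.0% of the control signal and 23.4%, 25.9% and 26.1% of the stress signal. The stress share was thus below the control share on all 3 arrays of day 71 and above it on all 3 arrays of day 59, with differences of -16.8 ± 7.63 and 11.1 ± 1.17 percentage points (SD, n = 3). It was also below on all 3 arrays of day 52 (-5.84 ± 4.00) and above on all 3 of day 63 (5.68 ± 2.45). On day 75 the control shares were 15.9% and 19.5% and the stress shares 13.6% and 19.8% on the mild and moderate arrays. The shares were taken from raw intensities, the slide's background included.

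The scanner's ceiling and the empty spots limit these values. Of the 300 spots of the 150 clones, between 0 and 133 reached the 16-bit maximum of 65535 in some channel, and 109 of the clones had a saturated control spot on at least 1 array, so that ratios below 0 are understated there. No clone was saturated on all arrays of a level. In the control channel all 150 clones exceeded the 95th percentile of the array's empty spots on each of the 23 arrays. In the stress channel 125 of 150 did so on the severe array of day 71, 144 on the mild array of day 71, 141 and 140 on the mild and severe arrays of day 52, 149 on mild day 55, and all 150 on the other arrays. The median intensity of the empty spots in the stress channel was 1384, 1310 and 1696 on the mild, moderate and severe arrays of day 71 and 4044 on mild day 52, against 273 to 1304 on the other arrays. The mild and severe arrays of day 71 and mild day 52, on which the 150 clones stood lowest, are thus 3 of the 4 arrays with the brightest empty spots in the stress channel, and the part of that signal in the ratios was not tested.

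The log2 ratio of stress over control, taken after background correction and a loess curve through all clones of an array, compares the channels clone by clone; a value of -1 is a 2-fold lower level under stress. The median of the 150 clones was -3.80 on the mild, -0.70 on the moderate and -4.90 on the severe array of day 71. It was -1.11 on mild day 52, -0.45 on severe day 52 and -0.88 on severe day 55, and between -0.17 and 0.18 on the other 17 arrays. With a loess curve for each print block the medians of mild day 52, severe day 52 and severe day 55 were -0.46, 0.01 and -0.01, while those of day 71 were -3.48, -0.36 and -4.42. The median of all clones was within 0.07 of 0 on each array.

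**Figure D2:**
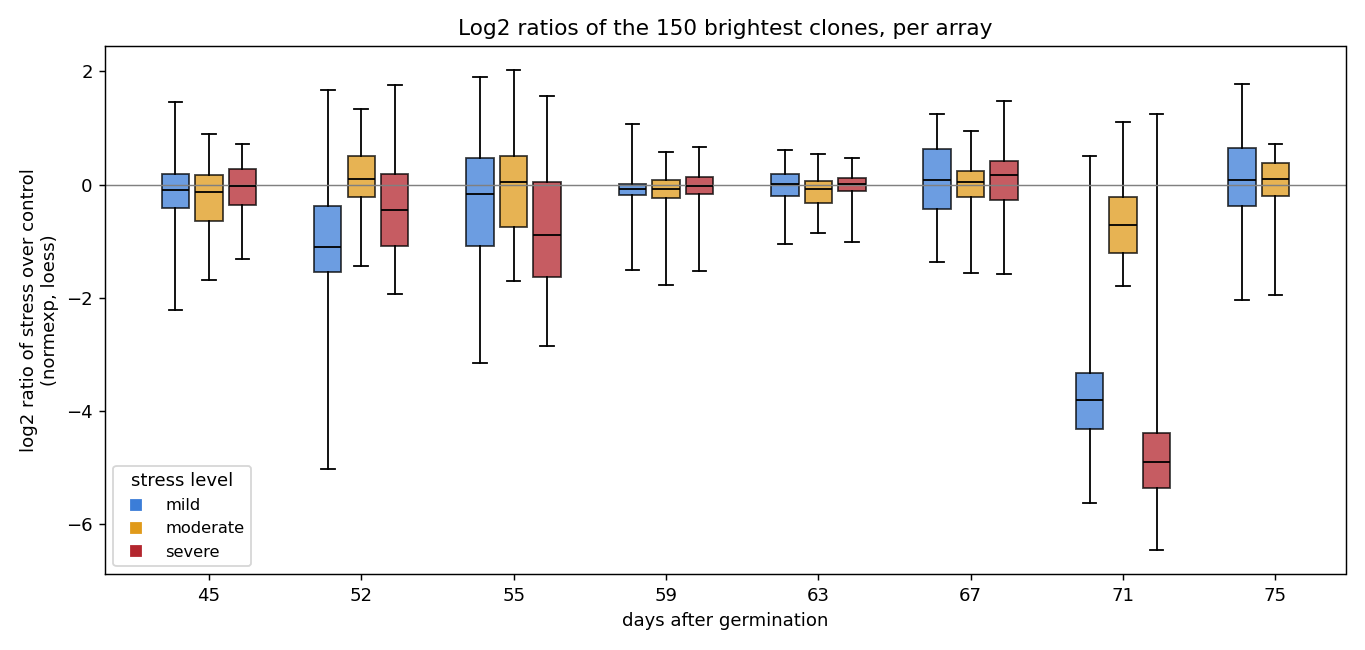
Log2 ratios of stress over control (vertical axis) of the 150 clones, 1 box per array, by day after germination and stress level (blue mild, orange moderate, red severe); boxes give the quartiles and the median, and whiskers run to the lowest and highest clone. The boxes of days 59 and 63 lie close to 0, and the mild and severe boxes of day 71 lie below -3.

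Each day was tested against 0 in a limma fit with day and level as factors, a test that was added after the data had been seen. Its p-values rest on the spread of the arrays left after day and level, which holds no spread between days. An error common to the arrays of a day would therefore count as an effect of that day. On day 71, 135 of the 150 clones were lower under stress and none was higher, at an adjusted p under 0.05 over all 7296 clones. Of all clones, 18.4% passed on that day, 15.9% lower and 2.48% higher. The median of the 150 clones was -3.18. With the arrays of 1 level left out, the counts were 132 lower and 1 higher (without mild), 135 lower (without moderate) and 126 lower (without severe). Centring each array on its median gave 135 lower and none higher, when 15.4% of all clones were lower and 2.49% higher. A loess curve for each print block gave 117 lower and 5 higher, when 14.7% and 4.03% of all clones were, and intensities without background correction gave 133 lower and 5 higher. The shares of all clones without background correction and with a level left out are not given here.

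On severe day 71 the raw stress intensity of each of the 10 brightest clones was below its lowest of the other days. On mild day 71 this held for some of them only, and NL51_E08 was not among those. NL51_E08 had control intensities of 65535, 61915 and 58397 on the mild, moderate and severe arrays of day 71, and stress intensities of 13717, 55644 and 3619. Over all 23 arrays its control intensity ranged from 48570 to 65535 (median 62856), and without day 71 its stress intensity had a median of 46936 and never fell below 13475. Its control signal thus stayed high on day 71 while its stress signal was low on the mild and severe arrays and high on the moderate one.

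Its log2 ratios on day 71 were -3.04, 0.08 and -4.49, and the test gave -2.48 ± 0.46 (SE, limma adjusted p = 0.000196). With a loess curve for each print block the sign turned, to 0.84 (limma adjusted p = 0.0119), so that the direction of NL51_E08 depends on the normalization. Without the severe arrays it no longer passed the test, at -1.48 (limma adjusted p = 0.0573).

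NL41_C11 had stress intensities of 7704, 20704 and 2190 against control intensities of 65535, 42714 and 59851, and its log2 ratio was -3.73 ± 0.48 (SE, limma adjusted p = 1.75e-06). NL41_E09, from the same plate, had stress intensities of 8315, 17833 and 2328 and a log2 ratio of -3.66 ± 0.47 (SE, limma adjusted p = 1.67e-06). Both were lower on all 3 arrays. All of the 10 brightest clones passed the test on day 71, with log2 ratios from -3.73 to -2.48, and the other 9 kept the sign in each alternative tried. With saturated spots left out, NL22_C01 had a value of -0.63 and no longer passed. Its control intensity was 65535 on the mild and severe arrays of day 71, so only the moderate array of that day remained in that setting. NL53_F04 no longer passed with a loess curve for each block (-1.81, limma adjusted p = 0.0559).

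The lowest value of day 71 was that of NL_15_4. Its log2 ratios were -4.81 on the mild, -1.75 on the moderate and -6.30 on the severe array, with a mean of -4.29 (limma adjusted p = 8.08e-08). Its stress intensity on the severe array, 1643, lay below the median of the empty spots there, so that this ratio reflects the background of the channel as well as the clone.

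The arrays of day 71 had the same order for nearly all of these clones. Of the 150, 142 were lower under severe than under mild stress and all 150 were lower under mild than under moderate stress, so that the order did not follow the field capacity. The medians of the next 150 clones by rank had the same order, at -4.72 (severe), -3.75 (mild) and -0.99 (moderate). The numbers of clones under -1 were 135 on the mild, 58 on the moderate and 139 on the severe array, where 15.0%, 6.32% and 19.5% of all clones were under -1. The part of print position in the moderate count was not tested. The 3 arrays of the day may share control RNA. With 1 array a level on the day, the difference between levels within day 71 has no replicate and was not tested.

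Being lower on day 71 went with brightness but was not limited to the chosen clones. Of the 150 clones, 129 had a day 71 mean under -2, against 511 of all clones (7.0%). In the next 150 clones by rank 106 were under -2, with a median of -3.21. The median was -0.62 in the next 300 clones after those, -0.16 in the following 600, and 0.05 in the clones from place 2401 on. The 150 clones thus hold 25.2% of all clones that were under -2. Within the 150, clones further down the ranking tended to lower ratios (rank correlation of place and ratio -0.31 mild, -0.32 moderate, -0.07 severe). The intensities of day 71 entered both the place and the ratio, so these correlations follow in part from the choice and are a description. On the severe array the median intensity of all clones was 683 in the control channel, where the empty spots had 167. In the stress channel it was 2081, where the empty spots had 1696. The part of signal near that of the empty spots in the trend with brightness was not tested.

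The 150 clones formed separate groups in the mean of the day 71 arrays. The 135 that passed the test had day 71 means from -4.29 to -1.30, the other 15 had means from -0.54 to 0.64, and none lay in between. On the mild array the 135 reached up to -1.18 and the 15 down to -0.81. The groups overlapped on the moderate array (up to 0.24 and down to 0.08) and on the severe array (up to -1.92 and down to -2.06). The 15 were NL22_H01, NL19_C04, NL52_C03, NL14_B05, NL6_E08, NL10_H09, NL15_A07, NL_20_74, NL26_B01, NL22_G01, NL41_F12, NL18_C07, NL32_C01, NL24_B01 and NL6_A04. This split was made from the day 71 ratios after they were seen, so the groups are described and not tested on that day. The 15 were spread over the ranking (median place 97, against 75 for the others), and 7 of them lay in print row 1, which holds 22 of the 150.

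**Figure D3:**
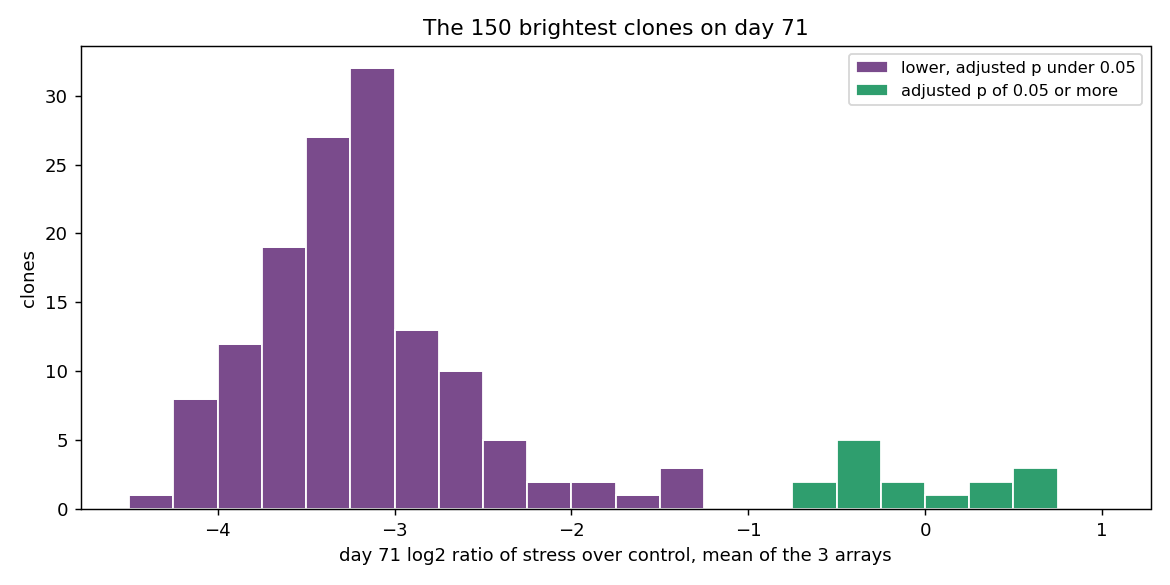
Number of the 150 clones (vertical axis) by the mean log2 ratio of stress over control of the 3 arrays of day 71 (horizontal axis, bins of 0.25), with the 135 clones that were lower at a limma adjusted p under 0.05 in purple and the other 15 in green. The purple bars end at -1.30 and the green bars begin at -0.54.

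In the stress channel the 15 clones were among the brightest of the whole array on day 71. Their median percentile was 99.7 on the mild, 99.8 on the moderate and 98.98 on the severe array, and 14, 15 and 13 of the 15 were among the 150 brightest clones. The 135 had median percentiles of 82.3, 96.8 and 78.3, and 3, 49 and 0 of them were among the 150 brightest. The 13 chosen clones that were among the brightest of the severe stress channel were thus all from the 15. In the control channel of these arrays 3, 12 and 3 of the 15 were among the 150 brightest. The stress intensities of day 71 had a part in both the choice and the split, so these places follow in part from both. A choice without day 71 kept 134 of the 150, and how many of the 15 it kept is not given here.

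NL14_B05 had the highest day 71 value. Its control intensities were 17630, 40642 and 28847 on the mild, moderate and severe arrays, and its stress intensities 39225, 57305 and 43143. Its log2 ratios of 0.51, 0.63 and 0.80 were above 0 on all 3 arrays, with a mean of 0.64 (limma adjusted p = 0.0804), and it passed the test without background correction, at 1.31 (limma adjusted p = 0.00181).

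NL41_F12 had stress intensities of 65248, 58040 and 46060 and log2 ratios of -0.19, 0.86 and 1.25. NL18_C07 had stress intensities of 49915, 49834 and 26524 and log2 ratios of 0.41, 0.96 and 0.38. NL6_A04 was the lowest of the 15, with log2 ratios of 0.12, 0.31 and -2.06 and a mean of -0.54. NL14_B05 and NL18_C07 were above 0 on each array of the day, while NL41_F12 and NL6_A04 had arrays on both sides of 0.

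**Figure D4:**
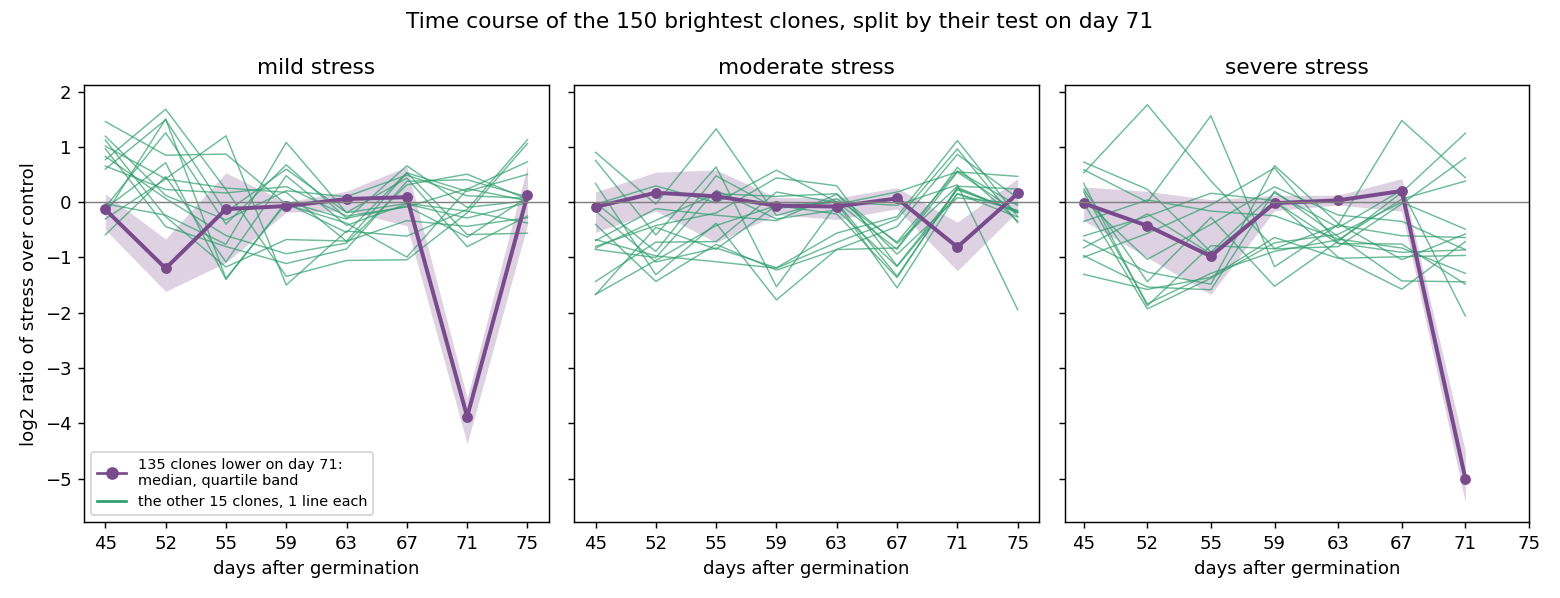
Log2 ratio of stress over control (vertical axis) by day after germination under mild, moderate and severe stress. The purple line and band give the median and quartiles of the 135 clones that were lower on day 71, and each green line is 1 of the other 15 clones; the severe panel ends at day 71. The purple median drops to -3.88 and -5.00 on the mild and severe arrays of day 71 and is 0.13 on mild day 75, and the lowest green value is -2.06, on severe day 71.

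On day 75 the median of the 135 clones was 0.13 on the mild and 0.16 on the moderate array. Single clones lay further out: 22.2% and 9.63% of the 135 were beyond 2-fold, against 7.33% and 3.60% of all clones, with 21 above 1 and 9 under -1 on the mild array. The 12 chosen clones of the set MK, all of the 135, had a median of -1.17 in the fit of that day. None of the 150 clones passed the test on that day, when 0.26% of all clones did; 12 of the 150 (8.0%) had an unadjusted p under 0.05, against 7.09% of all clones. Of the 150, 145 were higher on mild day 75 than on mild day 71 and 118 were higher on moderate day 75 than on moderate day 71. The shares of all clones for these counts are not given here. The lowest ratio of a level fell on day 71 for 136 (mild), 75 (moderate) and 138 (severe) of the 150. For all clones the shares were 14.4%, 10.6% and 27.1%. The highest mean of day 75 was that of NL7_G02, at 1.79 on the mild and 0.65 on the moderate array, and the lowest that of MK_PG6_A07, at -2.03 and -1.42 (limma adjusted p = 0.156), neither of which passed the test. With median centring MK_PG6_A07 passed it, at -2.30 (limma adjusted p = 0.0454).

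The mild array of day 52 showed a smaller shift with the same division. Its median was -1.20 in the 135 clones and 0.42 in the 15, and 86 of the 135 and none of the 15 were under -1. On this array 891 of the 7263 clones with a value were under -1. In the next 150 clones by rank 82 were, with a median of -1.17, so the shift was not particular to the chosen clones. Across the 150 clones its log2 ratios correlated with those of mild day 71 at 0.68. The moderate and severe arrays of day 52 had medians of 0.17 and -0.43 in the 135 clones and of -0.73 and -1.04 in the 15, so the division was turned around on these arrays.

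On day 52, 3 clones passed the test, all lower under stress, when 4.54% of all clones passed, 3.66% lower and 0.877% higher: NL14_B05, NL15_A07 and NL18_C07, all of the 15. NL14_B05 had log2 ratios of 0.07, -1.43 and -1.88 on the mild, moderate and severe arrays, with a test value of -1.08 ± 0.25 (SE, limma adjusted p = 0.0168). The values of NL15_A07 and NL18_C07 were -1.09 and -1.09. These names were chosen after their values were seen. With median centring 41 of the 150 were lower on day 52, when 7.29% of all clones were lower and 2.32% higher. With a loess curve for each block 2 were lower and 1 higher. Without the moderate arrays 27 were lower and 1 higher, and without the severe arrays none passed. For the loess curve per block and the left-out levels the shares of all clones are not given here. The lowest mean of the day was that of NL6_G07, at -5.02, 0.41 and -0.40, which rests on the mild array (limma adjusted p = 0.142).

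On day 55, before flowering, 29 of the 150 clones were lower and 4 higher, against 8.91% and 1.23% of all clones (10.1% in either direction). NL10_C03 was the lowest, at -3.14, -1.45 and -2.20 on the mild, moderate and severe arrays and -2.27 in the test (limma adjusted p = 0.00691). NL7_G02 was the highest, at 1.91, 2.03 and 0.98 and 1.64 in the test (limma adjusted p = 0.0271). All 3 arrays were below 0 for NL10_C03 and above 0 for NL7_G02. MK_PG6_A01, NL19_H07 and NL_20_74, chosen after their values were seen, were the others that were higher, at 1.52, 1.29 and 1.13.

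The counts of day 55 depended on the normalization and on which arrays were used. A loess curve for each print block gave 12 higher and 8 lower, against 2.28% and 4.84% of all clones, median centring none higher and 49 lower, against 1.32% and 9.77%, and no background correction 12 higher and 46 lower. Without the severe arrays 3 were higher and 7 lower, without the mild arrays none was higher and 3 were lower, and without the moderate arrays 4 were higher and 45 lower. NL10_C03 no longer passed with a loess curve for each block (-1.47, limma adjusted p = 0.0835) or without the mild arrays (-1.83, limma adjusted p = 0.220).

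Day 59 depended on the normalization. The medians of the 3 arrays were -0.07, -0.08 and -0.02, and 4 of the 150 clones were lower and none higher, against 0.48% lower and 1.64% higher of all clones (2.12% in either direction). With median centring 97 were higher and none lower, when 6.96% of all clones were higher and 0.85% lower, and the median of the 150 was 1.47. A loess curve is fitted to the ratio along brightness, and the 150 clones lie at its bright end. The part of this in the difference between the normalizations on day 59 was not tested. The 4 were NL41_F12 (-1.55), NL_20_74 (-1.40), NL18_C07 (-1.07) and NL14_B05 (-1.003), all of the 15 and, apart from the first, chosen after their values were seen. With median centring their values were -0.22, -0.33, 0.26 and 0.44, so that the direction of the last pair turned and none of the 4 passed the test. Without the mild arrays 1 passed on day 59, and without the moderate or the severe arrays none did, with the shares of all clones not given here. The highest mean of the day was that of NL32_C01, at 1.08, 0.44 and 0.66 (limma adjusted p = 0.119).

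**Figure D5:**
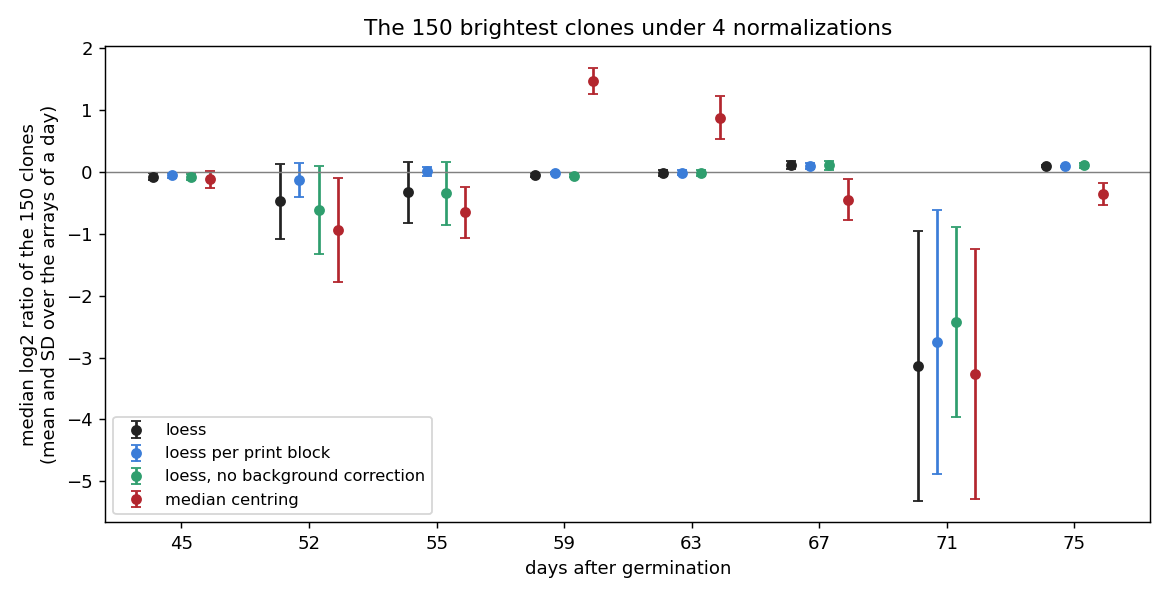
Median log2 ratio of the 150 clones per array, as the mean and SD over the arrays of a day (3 arrays, and 2 on day 75), under a loess curve per array (black), a loess curve per print block (blue), loess without background correction (green) and median centring (red). Day 71 lies at -3.26 to -2.42 in all of them, while day 59 lies at -0.06 with loess and at 1.46 with median centring.

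On the other days few of the 150 clones passed the test. On day 45, 3 were lower and 1 was higher, against 6.85% and 4.77% of all clones (11.6% in either direction): NL_12_67 (-1.22), NL22_G01 (-1.07) and NL24_B01 (-0.998) were lower and NL19_C04 (0.96) was higher. NL22_G01 and NL24_B01 were chosen here after their values were seen. Median centring gave 4 lower and none higher, and the counts without the mild, moderate and severe arrays were 1, 2 and 0. In these alternatives the shares of all clones are not given here.

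On day 63 none passed, when 0.0% of all clones did, and 5 (3.33%) had an unadjusted p under 0.05, against 5.56% of all clones. The extremes of day 63 were NL41_F12 at -0.87 and NL33_E04 at 0.47. On day 67 NL52_C03 was lower, at -0.33, -1.16 and -1.58 on the mild, moderate and severe arrays and -1.02 in the test (limma adjusted p = 0.0329), when 1.67% of all clones were lower and 0.11% higher, 1.78% together; the highest was NL19_H07 at 1.09 (limma adjusted p = 0.114). Median centring gave 7 lower on day 67, a loess curve for each block 1 lower and 1 higher, and no background correction 2 lower and 1 higher. Without the mild arrays 2 were lower, and without the moderate or the severe arrays none was. In the alternatives of day 67 the shares of all clones are not given here.

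Over the course of the drought, 138 of the 150 clones differed among the days in a limma F test, when 21.3% of all clones did. Of the 150, 108 passed the test on day 71 and on no other day, 33 on at least 2 days and 5 on none. For these counts by day the shares of all clones are not given here either, so they describe the 150 only. The count changed with the arrays used: without the mild arrays 16 of the 150 differed among days and without the severe arrays 5 did, while on day 71 the counts were 133 and 126. With saturated spots left out, 85 differed. The shares of all clones in these alternatives are not given here, so a change particular to the 150 cannot be told from one of all clones.

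Day 71 made up most of what the clones shared over the arrays. The median Pearson correlation of the log2 ratios over all pairs of the 150 clones was 0.84 over 23 arrays and 0.22 over the 20 arrays without day 71. The closest pairs were NL41_C11 with NL41_E09 (0.995), NL_15_21 with NL_15_38 (0.995) and NL_11_62 with NL_15_11 (0.994), and without day 71 these correlations were 0.97, 0.98 and 0.92. The clones of each pair were printed in the same print row, and print position cannot be told apart from the clones' own likeness there. The points share arrays and control RNA, and the correlations are given as a description.

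The spread over the arrays differed between the clones, and its relation to the day 71 value was not tested. The smallest SDs of the log2 ratio were those of NL6_E08 (0.49), NL52_C03 (0.52) and NL26_B01 (0.56), all of the 15. The largest were those of NL6_G07 (1.93), NL9_E08 (1.91) and NL_19_94 (1.71), which were at -5.02, -4.96 and -3.51 on mild day 52 and at -5.40, -5.11 and -5.62 on mild day 71. The median SD was 1.37 for the 150 clones and 0.50 for all clones, and 0.59 and 0.50 without day 71.

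Averaged over the 3 levels and all days, 9 of the 150 clones were lower under stress and none was higher in the limma fit with day as a random block, when 6.69% of all clones passed, 4.81% lower and 1.88% higher. The median of the 150 was -0.52, and 146 of them were below 0, against 50.4% of all clones. Without day 71 the median was -0.16, and 12 were lower and 1 higher, when 211 of the 7296 clones passed.

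NL_14_20 had the lowest mean, -1.06 ± 0.29 (SE, limma adjusted p = 0.0301). Under mild stress its log2 ratios ran from -4.82 to 0.12 (median -0.90), under moderate stress from -1.44 to -0.08 (median -0.35) and under severe stress from -4.88 to 0.13 (median -0.88). It was below 0 on 21 of 23 arrays. NL_12_67 followed at -1.03 ± 0.26 (limma adjusted p = 0.0215), below 0 on 20 of 23 arrays, with severe values from -4.04 to -0.09 (median -0.80).

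The others were NL51_A10 (-1.03), NL_14_51 (-0.95), MK_PG6_A07 (-0.88), NL_14_43 (-0.88), NL_14_34 (-0.84), NL22_G01 (-0.61) and NL24_B01 (-0.59), each below 0 on 18 to 22 of 23 arrays. NL24_B01 was named here after its values were seen. Of the 9, 4 came from plate NL_14, which gave 9 of the 150 clones, and these 4 lay in print row 9. All but NL22_G01 and NL24_B01 were also lower on day 71. The count of 9 depended on the days and the normalization. Leaving out day 45, 55 or 67 brought it to 0, day 75 to 3, day 52 to 4, and day 59 to 25. It was 0 with median centring and 2 lower and 1 higher with a loess curve for each print block. Within the first quantification session (days 45, 52 and 55) it was 20, and within the second (days 59 to 71) it was 0. In these alternatives the shares of all clones are not given here, so the changes may not be particular to the 150.

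Under severe stress 2 of the 150 clones were lower and none higher, against 0.206% and 0.0137% of all clones. The median was -0.88, and -0.24 without day 71. NL22_G01 was below 0 on all 7 severe arrays, from -1.58 to -0.64 (median -1.02), with a mean of -1.12 ± 0.24 (SE, limma adjusted p = 0.0454). NL24_B01 was below 0 on 6 of 7, from -1.59 to 0.20 (median -1.43), with a mean of -1.05 ± 0.23 (SE, limma adjusted p = 0.0428). Both belong to the 15 that did not pass the test on day 71. Without day 45, 55, 63, 67, 71 or 75 in turn neither passed, without day 52 a single clone did, without day 59 the count was 3, and with median centring or a loess curve for each block it was 0. The shares of all clones in these alternatives are not given here.

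None of the 150 clones passed the test under mild or moderate stress, where 0.0% of all clones did. At an unadjusted p under 0.05 the counts were 27 (mild), 6 (moderate) and 64 (severe), which is 18.0%, 4.0% and 42.7% of the 150, against 22.6%, 6.69% and 16.4% of all clones. The mild and moderate shares were thus below those of all clones. The medians were -0.64 under mild and -0.13 under moderate stress, and -0.19 and -0.04 without day 71. The smallest p-values under mild stress were those of NL_12_67 (-1.45, limma adjusted p = 0.0811) and NL51_A10 (-1.33, limma adjusted p = 0.105), and under moderate stress those of NL10_H09 (-0.59, limma adjusted p = 0.714) and NL14_B05 (-0.65, limma adjusted p = 0.735).

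Severe and mild stress were set against each other within days, where a dye effect common to a day cancels. None of the 150 clones differed, when 0.0% of all clones did, and 8 (5.33%) had an unadjusted p under 0.05, against 5.29% of all clones. The smallest p-values were those of NL24_B01 (-0.84) and NL22_G01 (-0.96), both with a limma adjusted p of 0.779. The late days (63 to 75) against the vegetative days (45 and 52) gave none either, when 0.0% of all clones passed, and 1 of the 150 (0.667%) had an unadjusted p under 0.05, against 1.27% of all clones. NL19_C04 (-1.11) and NL6_A04 (-0.76) had the smallest p-values, and the median of the 150 clones was -0.54.

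The authors' deposited table of log2 values holds another normalization of the same arrays, in which each spot has a mean near 0 within a level, taken across its 8 days. It could be matched for 139 of the 150 clones, in print rows 1 to 10, including all of the 15. In the authors' deposited table the median of these clones on day 71 was -3.10 on the mild, -1.38 on the moderate and -4.70 on the severe array, and that of the 15 was -0.12, -0.38 and -1.78. On day 59 it was 2.25, 1.70 and 1.89, the highest of each level. For severe day 75, which has no intensities here, the authors' deposited table gave a median of 1.18 for the 139 clones against 0.14 for all 6474 clones matched. These values are differences from the other days of a level, so the low values of day 71 raise those of the remaining days.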

How the data were processed

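RNA of stressed and control leaves was hybridised to spotted 2-colour arrays of 7296 clones in duplicate, next to control and empty spots. The deposited intensities are raw spot values of each channel from QuantArray with the background in columns of its own, per the file headers. In the mild file of day 45 they are sums over 80 pixels, as their maximum shows, and intensities of that array are given divided by 80. The authors' deposited table holds log2 values, centred by spot within a level; how they were normalized earlier is not stated in the labels. The direction was taken from the scanner files, and 2 of its columns (moderate days 52 and 55) did not correlate with their own arrays.

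Intensities were corrected with normexp (offset 50), log2 ratios of stress (channel 2) over control were normalized with loess (span 0.3, 4 iterations) over the clone spots of an array, and duplicates were averaged; 612 clone spots marked as ignored were left out. limma 3.58.1 in R 4.3.3 tested all clones with Benjamini-Hochberg adjustment at 0.05, and the script was tested on simulated data. Levels were fitted together, the mean of the levels and the late days with day as a random block, and severe against mild with day as a factor. The tests of single days and among days, with day and level as factors, were added after the data had been seen. Tables and figures were made with Python 3.11.15, pandas 2.3.3, numpy 2.4.6 and matplotlib 3.10.9.

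The alternatives were no background correction, a loess curve for each print block, median centring, saturated spots left out, the quantification sessions apart (9 arrays of days 45 to 55 and 12 of days 59 to 71, per the file headers), another day block, scaling, and days, levels or the mild array of day 45 left out. The files of day 75 are shorter, and were joined by clone name (mild) and by position (moderate); severe day 75 has no intensities here. The members and lists were chosen with earlier results of these data known. Clones named are the 10 brightest, those at the edge of the choice, those past the threshold or with the smallest p in each comparison, the extremes of each day, of the SD over arrays and of the rank, and the closest pairs; others are said to be chosen after their values were seen. The number of arrays limits the precision.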

Additional observations from a re-analysis of the deposited data

Results flagged for a closer look

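Within each stress level, the arrays of a level were screened for a value far from the others in 24 sets of array values, and 8 sets held such an array, each time that of day 71; chance sets an array apart in about 1 of 20 sets. These sets are not independent, since they describe the same clones on the same arrays, and some come from the intensities that chose the clones. The number of 8 can therefore not be weighed against that rate. The median log2 ratio of the 150 clones was -3.80 on mild day 71 (next lowest -1.11, n = 8), -0.70 on moderate day 71 (next -0.13, n = 8) and -4.90 on severe day 71 (next -0.88, n = 7). Their median percentile in the stress channel was 85.3 on mild day 71 (next 93.6), 97.4 on moderate day 71 (next 98.6) and 79.2 on severe day 71 (next 97.8). The number among the 150 brightest clones of the stress channel was 64 on moderate day 71 (next 91) and 13 on severe day 71 (next 73). The stress effect also differed among the days for 138 of the 150 clones in the limma F test. Day 71 has 1 array for each level and no repeat, so that the day, its plants and the handling of its arrays cannot be told apart.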

How the results depend on the processing

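The count of day 71 kept its direction and stayed within 1.5 times its value in each alternative run, with 126 to 135 clones when a level was left out. The cause was not tested for the changes that follow. For the mean of the levels the count of 9 became 14 without background correction, 3 with a loess curve per block, 0 with median centring, 20 and 0 within the first and second quantification session, 5 without the mild array of day 45, 39 with no day block, 14 with scaling and 0 to 25 with a day left out. Mild stress gave 1 without background correction. Severe stress gave 0 without background correction, with a loess curve per block, with median centring and within each session, 1 with saturated spots left out, and 0 to 3 with a day left out. Differences among days gave 85 with saturated spots left out and 5 to 137 with a level left out. Without background correction day 45 gave 7, day 52 gave 11, day 55 gave 58 and day 67 gave 3. A loess curve per block gave 2 on day 45, 20 on day 55, where most then were higher, and 2 on day 67. Median centring gave 41 on day 52, 97 on day 59, all higher, 7 on day 67 and 1 on day 75. With a level left out the counts were 0 to 2 on day 45, 0 to 28 on day 52, 3 to 49 on day 55, 0 to 1 on day 59 and 0 to 2 on day 67. The median log2 ratio of day 59 was -0.016 with a loess curve per block and 1.46 with median centring, which gave 0.87 on day 63, -0.45 on day 67 and -0.36 on day 75; that of day 75 was 0.070 with saturated spots left out. That of day 52 was -0.14 with a loess curve per block and -0.94 with median centring, against -0.48, and that of day 55 was 0.0076 and -0.66, against -0.34, so that day 55 lost its direction. NL14_B05 and NL18_C07 turned to 0.44 and 0.26 on day 59 with median centring, and NL51_E08 to 0.84 on day 71 with a loess curve per block. Of the values of single clones under the alternatives, 449 kept direction and side of the threshold, 156 no longer passed it, 8 newly passed it and 3 reversed.

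Choosing the clones from background-subtracted products kept 149 of the 150, from the control channel alone 135, from the stress channel alone 116, by the median rank 126, and with a day left out 134 to 146. The levels share their days, which pair the arrays: severe was set against mild with day as a factor, and day as a random block left the counts of the single levels at 0, 0 and 2. Signal near that of empty spots limits the stress channel on day 71 and mild day 52, and saturation limits the control channel.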

Other observations

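All 3 sets of clones held chosen clones that were low on day 71. In the set NL, 95 of 109 chosen clones were lower on day 71, with a median log2 ratio of -3.14, against 0.18 for all clones of the set. In the set NL_ it was 28 of 29, with a median of -3.56 against -0.16, and in the set MK 12 of 12, with a median of -3.03 against -0.51.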
